A study of Mus musculus with 6 samples.

Results

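The genes described here are 40 genes of DNA replication and deoxynucleotide supply, taken by symbol from the 55536 genes of one expression table: the origin licensing factors, the MCM helicase and its activators, the DNA polymerases and primase, the sliding clamp and its loader, the enzymes that join Okazaki fragments, the enzymes that make deoxynucleotides, the chromatin assembly factor CAF-1 and the transcription factor E2F1. All 40 were found, 39 had enough reads to be tested, and Orc1 did not. The table holds bulk RNA sequencing of liver tissue from male C57BL/6 mice, 3 libraries from Sirt5-/- animals, which lack the gene for the mitochondrial deacylase SIRT5, and 3 from Sirt5+/+ animals. Animals of both genotypes had received the same plasmids. The injection, at 4 weeks of age, held 50 µg of the plasmid PB[CMV-myc-YAP5SA]DS, which expresses a constitutively active YAP, the effector of the Hippo pathway, with 10 µg of the transposase plasmid Act-PBase. The tissue was taken 20 days after this hydrodynamic injection, which pushes plasmid DNA into a part of the hepatocytes, so a library mixes cells that took up the plasmid with cells that did not. All 6 libraries were of livers given YAP5SA, and livers without it were not analysed here. The labels number the livers but do not say that each is a separate animal, so p-values measure only the spread between these samples.

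DNA is copied once in each cell cycle. In G1 the origin recognition complex, CDC6 and CDT1 load the ring of MCM2 to MCM7 onto DNA, and in S phase CDC45, the GINS complex and MCM10 turn the loaded ring into a moving helicase. Polymerase alpha with primase starts each strand, the clamp loader RFC places the PCNA ring, polymerases epsilon and delta extend the strands, and FEN1 and DNA ligase I join the lagging strand pieces. Ribonucleotide reductase, thymidylate synthase, thymidine kinase and dUTPase supply and clean the pool of deoxynucleotides, and E2F transcription factors switch many of these genes on at the G1 to S transition. Adult hepatocytes are mostly resting, and these genes are known to rise in regenerating liver and in tumours.

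Library totals ran from 19307808 to 24330797 estimated counts. The deleted gene checked the labels: Sirt5 counts were 352.03, 441.23 and 95.71 with the gene and 13.79, 44.65 and 17.99 without it, a lower level by edgeR (log2 fold change -4.13 ± 0.38 SE, adjusted p = 0.00146). The share of reads from mitochondrially encoded genes was 7.20, 6.58 and 46.4% in the Sirt5+/+ replicates, in their order, and 40.8, 21.5 and 17.5% in the Sirt5-/- replicates, so that Sirt5+/+ replicate 3 and Sirt5-/- replicate 1 stand apart. Levels below are counts scaled to a common library total with TMM factors (CPM), and 3 counts in a library equal 0.0827 to 0.393 CPM. With that scaling the 14799 genes tested had a median log2 fold change of -0.08. It was 0.11 with upper-quartile factors and 0.60 with library totals alone, so log2 fold changes should be read against that median.

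Most of the replication genes were higher in the Sirt5-/- livers. Of the 39 tested, 17 rose, 2 fell (Mcm10, a helicase activator, and Tk1, cytosolic thymidine kinase) and 20 did not pass an adjusted p of 0.05 in the edgeR test. Their median log2 fold change was 1.08, and 31 of 39 were above 0. Of all genes tested, 17.4% were called higher and 17.1% lower. The members' shares were 43.6% higher and 5.13% lower. In 24 members the 3 Sirt5-/- libraries all lay above the 3 Sirt5+/+ libraries in CPM, which was so for 25.8% of all genes, and in 2 members they all lay below, which was so for 24.0%. Averaged over the 39 genes, each centred on its own mean, log2 CPM was -0.21, -0.39 and -0.67 in the Sirt5+/+ replicates and 0.17, 0.47 and 0.64 in the Sirt5-/- replicates, each in the order of their numbers. The genotypes did not overlap in this average, and the lowest library of each genotype was the one richest in mitochondrial reads. The part of that difference in RNA make-up in the result was not tested. Without those 2 libraries, 24 members rose and 2 fell, when 25.1% of all genes were called higher and 22.8% lower. In bulk tissue, fewer cells of a type and less RNA per cell cannot be told apart.

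The number of calls depended on single libraries. Without Sirt5-/- replicate 2, and likewise without Sirt5-/- replicate 3, 5 members rose and 1 fell. That is 12.8% higher in both cases, near the 10.1% and 9.53% of all genes called higher in these fits. Without Sirt5+/+ replicate 2 the counts were 10 and 1, and without Sirt5+/+ replicate 3 they were 24 and 2, when 12.9% and 25.6% of all genes were called higher. With library totals 15 members rose and none fell, when all genes split into 2438 higher and 325 lower calls against 2575 and 2525 with TMM factors. Rrm1, Mcm3, Mcm4, Lig1 and Pold1 kept their call in all 19 alternatives tried. Shares in the authors' deposited table are over its 25419 genes with any count, a wider base than the 14799 tested here. At an adjusted p of 0.05 that table called higher 21 members and called lower 2, against 12.2% and 11.6% of those genes. Its calls include all 19 made here and, in addition, Pole, Prim2, Gins1 and Orc1.

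**Figure D1:**
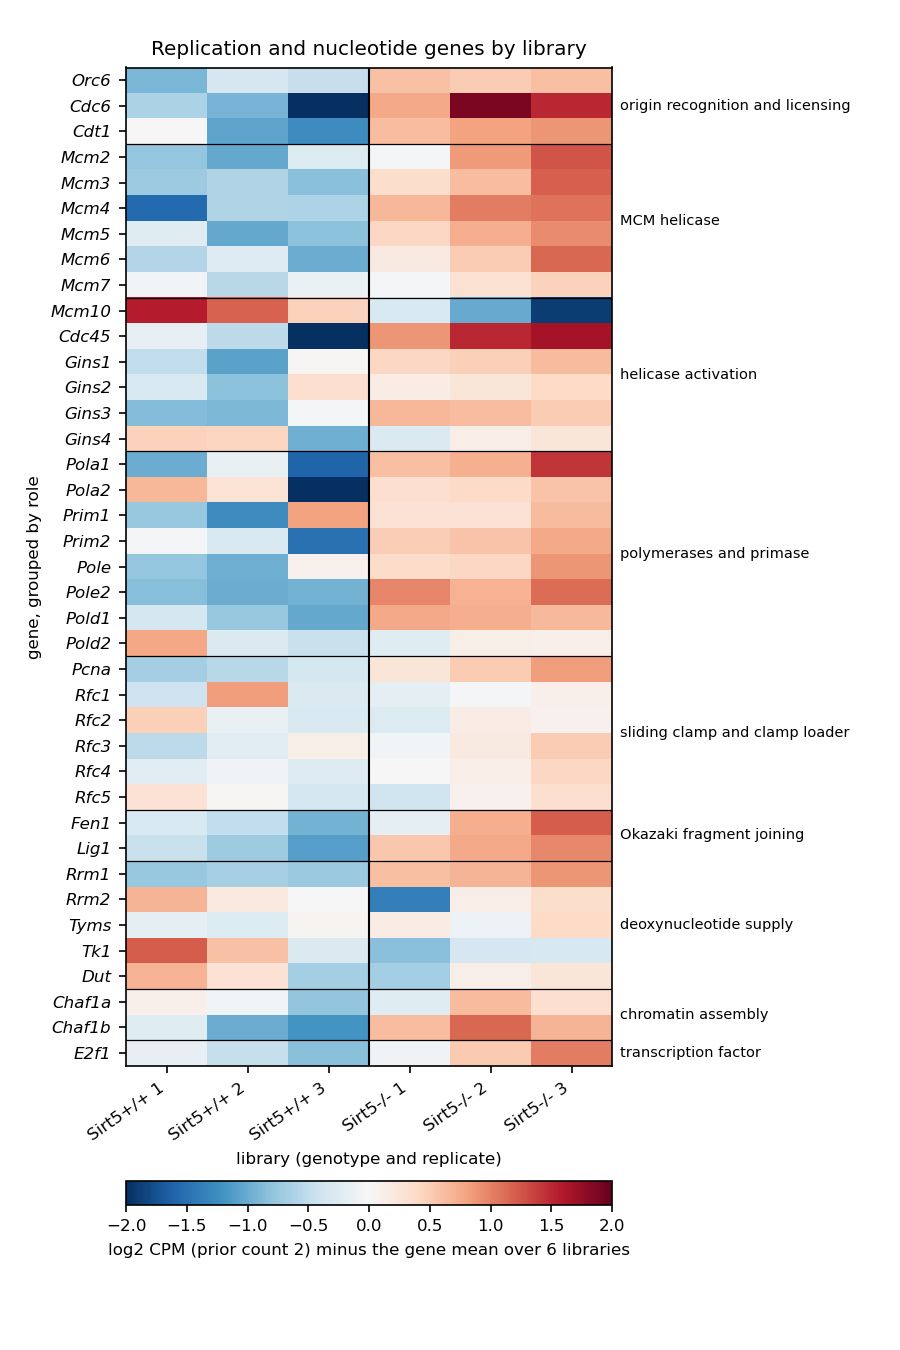
Heat map of the 39 tested genes (rows, grouped by role) in the 6 libraries (columns); colour is log2 CPM (prior count 2) minus the gene's mean over the 6 libraries, capped at -2 and 2. The rows of Mcm10 and Tk1 run against most others, and Sirt5-/- replicate 1 is paler than the other Sirt5-/- libraries in most MCM rows.

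**Figure D2:**
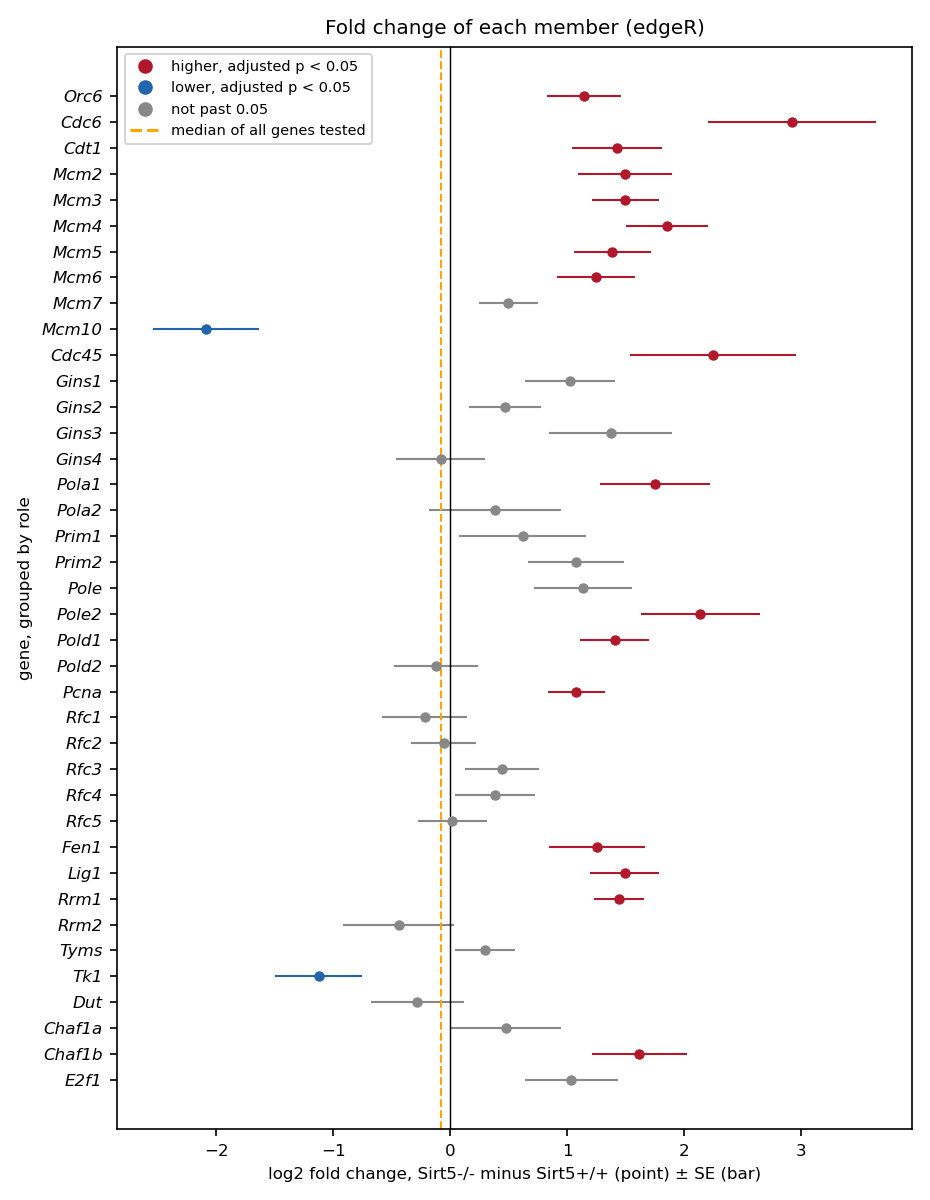
Log2 fold change (Sirt5-/- minus Sirt5+/+, edgeR) of each tested gene as a point with its standard error as a bar, 3 libraries a genotype; colour gives the call at an adjusted p of 0.05 and the dashed line is the median of all genes tested, -0.08. Red points fill the licensing and Okazaki fragment groups and all of the MCM group but Mcm7. Rfc1 to Rfc5 run from -0.22 to 0.44, and none of them passed.

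Because E2F sites near the start of transcription are a textbook feature of these genes, the RefSeq promoter windows (GRCm38.p6, 250 bases before to 50 after the start) were searched on both strands for E2F words, which can overlap each other. One word was TTCCCGC. Another, with the other common core, was TTGGCGC. The remaining forms of the same motif were TTGCCGC and, last, TTCGCGC. A window was found for 33 of 40 members, 38 windows in all. An E2F word was in 60.5% of them and in 9.57% of all 32851 windows. Among tested members with a word 12 of 20 rose, with a median log2 fold change of 1.38, and among those without one 4 of 12 rose, with a median of 0.34. Whether these medians differ was not tested. The CCAAT word was in 52.6% of member windows and 37.4% of all windows, and the CHR element, either as TTTGAA or in its other form as TTCGAA, in 18.4% and 19.2%. Mcm6 and Pola1 are printed because they hold the most E2F matches (5 and 4). Mcm3, Mcm5 and Mcm7 follow with 3, and Mcm3 is printed because its log2 fold change, 1.50, was the largest of these. Cdc45 is printed because its log2 fold change, 2.25, was the largest in either direction among members with no E2F word. Each printed window is written 5′ to 3′ on the strand of the gene, with E2F words, in either orientation, in capitals. The windows are chr1:128359656-128359955 (Mcm6), chrX:93632106-93632405 (Pola1), chr1:20820263-20820562 (Mcm3) and chr16:18811923-18812222 (Cdc45), all on the minus strand.
Mcm6: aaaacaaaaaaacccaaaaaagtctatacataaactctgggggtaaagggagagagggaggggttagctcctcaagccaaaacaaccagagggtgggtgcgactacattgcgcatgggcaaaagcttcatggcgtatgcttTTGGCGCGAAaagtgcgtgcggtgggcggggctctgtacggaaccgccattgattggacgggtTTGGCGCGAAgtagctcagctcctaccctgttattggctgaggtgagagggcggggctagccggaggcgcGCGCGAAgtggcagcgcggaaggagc
Pola1: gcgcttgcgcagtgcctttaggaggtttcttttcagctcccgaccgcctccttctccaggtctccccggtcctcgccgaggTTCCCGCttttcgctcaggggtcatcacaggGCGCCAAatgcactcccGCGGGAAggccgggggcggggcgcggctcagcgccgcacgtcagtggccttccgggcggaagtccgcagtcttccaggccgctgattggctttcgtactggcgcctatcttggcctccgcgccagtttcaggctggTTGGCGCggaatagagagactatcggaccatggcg
Mcm3: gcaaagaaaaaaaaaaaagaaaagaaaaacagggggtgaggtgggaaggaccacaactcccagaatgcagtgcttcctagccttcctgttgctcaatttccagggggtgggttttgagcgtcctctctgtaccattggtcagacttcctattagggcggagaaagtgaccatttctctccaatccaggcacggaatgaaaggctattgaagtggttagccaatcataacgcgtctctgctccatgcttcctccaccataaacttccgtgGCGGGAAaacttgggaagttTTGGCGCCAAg
Cdc45: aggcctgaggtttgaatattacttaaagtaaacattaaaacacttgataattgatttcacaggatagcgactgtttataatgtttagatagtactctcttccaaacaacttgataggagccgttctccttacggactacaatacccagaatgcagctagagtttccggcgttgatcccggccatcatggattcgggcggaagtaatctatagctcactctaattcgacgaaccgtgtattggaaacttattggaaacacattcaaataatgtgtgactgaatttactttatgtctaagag
In Mcm6 the 5 matches merge into 3 sites, since words on opposite strands overlap. In Mcm3 the 3 matches make 2 sites, and a match is a run of letters, not a measured binding site.

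All 3 tested licensing genes rose. Cdc6, the loader that brings MCM rings to origins, was at 0.237, 0.179 and 0 CPM in Sirt5+/+ and 0.758, 1.74 and 1.33 CPM in Sirt5-/-. The Sirt5+/+ values come from 5, 5 and 0 counts, so the log2 fold change of 2.92 ± 0.72 (edgeR adjusted p = 0.0154) rests on few reads. Cdt1, its partner in loading, was at 4.51, 2.11 and 1.83 against 6.94, 7.88 and 8.34 CPM, a rise of 1.43 ± 0.39 on the log2 scale (adjusted p = 0.0216). Orc6, a subunit of the origin recognition complex, was at 1.71, 2.57 and 2.36 against 4.96, 4.71 and 5.03 CPM, a rise of 1.15 ± 0.32 (adjusted p = 0.0238). The genotypes did not overlap for these 3 genes. Orc1, the large subunit of that complex, had 1, 3 and 0 counts in Sirt5+/+ and 5, 20 and 17 in Sirt5-/- and was not tested. The calls of all 3 genes were lost without Sirt5-/- replicate 2 or 3, with adjusted p of 0.0658 to 0.0961, those of Cdc6 and Cdt1 also without Sirt5+/+ replicate 2 (0.0577 and 0.0827), and those of Cdt1 and Orc6 without Sirt5-/- replicate 1 (0.0536 and 0.0718). Orc6 also missed the threshold with library totals (log2 fold change 1.78, adjusted p = 0.0870).

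Of the 6 subunits of the MCM ring, 5 rose and Mcm7 did not pass the test, and in all 6 the Sirt5-/- libraries lay above the Sirt5+/+ libraries. Mcm3 was at 5.50, 6.00 and 5.11 CPM in Sirt5+/+ and 11.8, 14.1 and 21.2 in Sirt5-/-, a log2 fold change of 1.50 ± 0.28 (edgeR adjusted p = 0.00556). Mcm4 was at 1.47, 2.93 and 2.88 against 7.17, 9.21 and 9.66 CPM and had the largest fitted change of the ring, 1.85 ± 0.35 (adjusted p = 0.00550). Sirt5-/- replicate 3 was the highest library for every subunit. Mcm2 (3.10 ± 0.863 to 8.56 ± 3.58 CPM, SD, n = 3), Mcm5 (2.94 ± 0.887 to 7.70 ± 1.44) and Mcm6 (5.46 ± 1.40 to 13.1 ± 4.72) rose by 1.50, 1.39 and 1.25. Mcm7 was at 11.4, 8.03 and 10.7 against 11.5, 14.7 and 16.3 CPM, a difference of 0.50 ± 0.25 (adjusted p = 0.160). Sirt5+/+ replicate 1 and Sirt5-/- replicate 1 nearly met for this gene. In the transcript set, 26.8% of Mcm7's 31-base words also occur in other genes, among them the copy Gm5487, which had no count in any library. Mcm2, Mcm5 and Mcm6 lost their calls without Sirt5-/- replicate 2 or 3, with adjusted p of 0.0587 to 0.106, Mcm2 and Mcm5 also without Sirt5+/+ replicate 2 (0.0833 and 0.0520), and Mcm2 without Sirt5+/+ replicate 1 (0.0611).

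Among the genes that turn the loaded ring into a helicase, Mcm10 fell and Cdc45 rose, while the 4 GINS genes did not pass the test. Mcm10 (chromosome 2, 4989714 to 5012791, minus strand, GRCm38) encodes a factor that helps open the helicase and hold polymerase alpha at the fork. It was at 126, 96.7 and 58.4 CPM in Sirt5+/+ and 34.2, 21.0 and 11.3 CPM in Sirt5-/-. Every Sirt5-/- library was below every Sirt5+/+ library, and the log2 fold change was -2.08 ± 0.45 (edgeR adjusted p = 0.00921), 4.24-fold lower. The count behind it, 411 to 2709 reads a library, was larger than for most of the other genes described here, and no exon of another gene overlaps it. The table has 1 value per gene and library, so which exons of Mcm10 hold these reads was not tested, and that applies to its ratio and TPM below as well. The fall kept its call without any single library, and lost it with library totals (log2 fold change -1.72, adjusted p = 0.0694). Cdc45 was at 0.664, 0.500 and 0 CPM in Sirt5+/+ (14, 14 and 0 counts) and 1.46, 2.29 and 2.57 in Sirt5-/-, a rise of 2.25 ± 0.71 (adjusted p = 0.0389) that was lost on leaving out any library but Sirt5+/+ replicate 3 (adjusted p from 0.0548 to 0.143).

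The GINS complex bridges CDC45 and the MCM ring. Gins1 was at 1.97 ± 0.753 CPM (SD, n = 3) in Sirt5+/+ and 3.89 ± 0.327 in Sirt5-/-, a log2 difference of 1.03 (edgeR adjusted p = 0.0701), and Gins3 at 0.436 ± 0.190 and 1.06 ± 0.0587, a difference of 1.37 (adjusted p = 0.0751). Gins2 differed by 0.47 (adjusted p = 0.273) and Gins4 by -0.08 (adjusted p = 0.888), with overlapping genotypes. Without Sirt5+/+ replicate 3, Gins1, Gins2 and Gins3 passed the threshold (adjusted p = 0.0104, 0.0139 and 0.0256). In Gins2, 67.3% of exonic bases lie opposite exons of Gse1, and the sources used here do not say whether counting used strand.

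3 genes of the replicative polymerases rose, the catalytic subunits Pola1 and Pold1 and the accessory subunit Pole2, and none of the 8 polymerase and primase genes fell. Pold1, the catalytic subunit of the lagging strand polymerase delta, was at 3.61, 2.71 and 2.23 CPM in Sirt5+/+ and 7.93, 7.75 and 7.29 in Sirt5-/-, a log2 fold change of 1.41 ± 0.29 (edgeR adjusted p = 0.00779). The spread within Sirt5-/- was small beside the gap between genotypes. Its partner subunit Pold2 was at 13.2, 6.28 and 5.63 against 6.53, 8.44 and 8.28 CPM, overlapping, with a difference of -0.12 (adjusted p = 0.819). Pola1, which extends the primer, was at 1.04, 1.93 and 0.655 against 3.32, 3.56 and 5.94 CPM, a rise of 1.75 ± 0.47 (adjusted p = 0.0215). Its subunit Pola2 was at 6.26, 4.79 and 0.786 against 4.96, 5.13 and 5.85 CPM, so that Sirt5+/+ replicate 3 alone lay apart and the difference was 0.38 (adjusted p = 0.636). Pole2, of the leading strand polymerase epsilon, was at 0.266 ± 0.0176 and 1.19 ± 0.183 CPM (SD, n = 3), a rise of 2.14 ± 0.51 (adjusted p = 0.0131). Its Sirt5+/+ values come from 6, 6.51 and 2 counts, so the rise rests on few reads and the small SD carries little weight. The catalytic Pole (1.65 ± 0.730 and 3.50 ± 0.745 CPM, adjusted p = 0.0663) and the primase subunits Prim2 (1.92 ± 0.899 and 4.19 ± 0.406, adjusted p = 0.0749) and Prim1 (2.78 ± 2.26 and 4.05 ± 0.582, adjusted p = 0.414) did not pass. Pola1 and Pole2 lost their calls without Sirt5-/- replicate 2 or 3, with adjusted p of 0.0582 to 0.108, and Pola1 also without Sirt5+/+ replicate 1 (0.0596). Without Sirt5+/+ replicate 3 Pole, Prim1 and Prim2 gained one (0.00716, 0.00678 and 0.0437).

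The sliding clamp rose and no subunit of its loader passed the test. Pcna, the ring that tethers the polymerases to DNA, was at 15.04, 16.4 and 19.0 CPM in Sirt5+/+ and 28.6, 34.5 and 43.3 in Sirt5-/-, a log2 fold change of 1.08 ± 0.24 (edgeR adjusted p = 0.0106). The genotypes were well apart, and the call was lost without Sirt5-/- replicate 2 or 3 (adjusted p = 0.0510 and 0.0613) and with library totals (log2 fold change 1.82, adjusted p = 0.0530). Other genes hold 23.3% of the 31-base words of Pcna, among them the processed copy Pcna-ps2. That copy had 2.37, 3.82 and 1.83 CPM in Sirt5+/+ and 7.17, 10.4 and 12.7 in Sirt5-/- and rose by 1.88 ± 0.37 (adjusted p = 0.00606). How reads were divided between the gene and the copy is uncertain, and summed they had 367, 567 and 159 counts in Sirt5+/+ and 613, 1629 and 2030 in Sirt5-/-. The loader subunits Rfc1 to Rfc5 had log2 fold changes from -0.22 (Rfc1) to 0.44 (Rfc3), with edgeR adjusted p from 0.310 to 0.965. In Rfc4 (0.39) every Sirt5-/- library lay above every Sirt5+/+ library in CPM, and in the other loader genes the genotypes overlapped. Rfc1, the large subunit, was at 5.65, 13.5 and 6.16 against 6.53, 7.33 and 8.03 CPM, and the sign of Rfc1, Rfc2 and Rfc5 changed with the scaling or the libraries used. Rfc2, Rfc4 and Rfc5 lie in part opposite exons of Lat2, Eif4a2 and Wsb2 (15.1, 12.7 and 10.7% of exonic bases).

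Both genes of Okazaki fragment joining rose. Lig1, DNA ligase I, was at 3.56, 2.96 and 2.23 CPM in Sirt5+/+ and 7.12, 8.30 and 9.55 in Sirt5-/-, a log2 fold change of 1.49 ± 0.30 (edgeR adjusted p = 0.00658). Fen1, the flap endonuclease that trims the fragment's primer end, was at 3.32, 2.93 and 2.10 against 3.62, 6.86 and 9.69 CPM, so that Sirt5-/- replicate 1 was close to the Sirt5+/+ libraries, and rose by 1.26 ± 0.41 (adjusted p = 0.0442). The Fen1 call was lost without Sirt5+/+ replicate 1 or 2 (0.0647 and 0.112) or Sirt5-/- replicate 2 or 3 (0.128 and 0.201) and with limma-voom (0.0595). The antisense gene Gm10143 covers 78.8% of its exonic bases and had at most 13.49 counts in a library.

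Of the 5 deoxynucleotide genes Rrm1 rose, Tk1 fell and Rrm2, Tyms and Dut did not pass the test. Rrm1 (chromosome 7, 102441695 to 102469771, plus strand, GRCm38), the large subunit of ribonucleotide reductase, was at 8.45, 8.999 and 8.52 CPM in Sirt5+/+ and 21.6, 22.8 and 26.3 CPM in Sirt5-/-. It rose 2.72-fold, a log2 fold change of 1.44 ± 0.21 and the smallest edgeR adjusted p among these genes (0.00245). Rrm2 (chromosome 12, 24708241 to 24714146, plus strand), the small subunit that carries the radical and is known as the limiting one in S phase, was at 5.31, 3.75 and 3.28 against 1.22, 3.61 and 4.22 CPM. The genotypes overlapped and the difference was -0.44 ± 0.47 (adjusted p = 0.509), with Sirt5-/- replicate 1 the lowest of the 6 libraries. Tyms, thymidylate synthase, was at 7.24 ± 0.901 and 8.87 ± 1.59 CPM (SD, n = 3), a difference of 0.30 (adjusted p = 0.393), and Dut, dUTPase, at 7.82 ± 3.43 and 6.49 ± 2.02 CPM, a difference of -0.28 (adjusted p = 0.622).

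Tk1 (chromosome 11, 117815526 to 117826092, minus strand, GRCm38), which salvages thymidine in S phase, was at 33.2, 21.6 and 11.7 CPM in Sirt5+/+ and 7.93, 11.2 and 11.4 CPM in Sirt5-/-. The lowest Sirt5+/+ library, replicate 3, lay just above the highest Sirt5-/- library. The log2 fold change was -1.12 ± 0.37 (edgeR adjusted p = 0.0471). The call was lost on leaving out any library but Sirt5+/+ replicate 3 (adjusted p from 0.102 to 0.149), with upper-quartile factors (0.0765) and with library totals (log2 fold change -0.56, adjusted p = 0.634). Tk1 starts 168 bases from Afmid, an enzyme gene of tryptophan breakdown on the opposite strand. Afmid, looked up after its values were seen, was at 192, 113 and 27.9 CPM in Sirt5+/+ and 4.72, 4.82 and 5.16 CPM in Sirt5-/- and was lower (log2 fold change -4.50 ± 0.65, adjusted p = 0.00242). For both genes of the pair replicate 3 was the lowest Sirt5+/+ library, as it was for Mcm10 and for the mean of the 39 tested genes. Exons of the pair share 83 bases on opposite strands, 1.60% of the exonic bases of Tk1, and whether counting used strand is not known.

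Of the 2 large subunits of CAF-1, which sets histones on new DNA, Chaf1b rose, from 1.85, 1.07 and 0.917 CPM in Sirt5+/+ to 3.44, 5.02 and 3.59 in Sirt5-/- (log2 fold change 1.62 ± 0.40, edgeR adjusted p = 0.0160). It did not pass without Sirt5+/+ replicate 2 (0.0610) or Sirt5-/- replicate 2 or 3 (0.0933 and 0.0555). Chaf1a was at 1.28, 1.14 and 0.655 against 0.991, 1.87 and 1.52 CPM, with overlap (difference 0.48, adjusted p = 0.466). Exons of Ubxn6 on the other strand face 52.5% of its exonic bases, and Ubxn6 fell by 1.34 (adjusted p = 0.0230), a call lost without Sirt5+/+ replicate 2 or any Sirt5-/- replicate (0.0513 to 0.0888) and with library totals (0.461). E2f1 was at 2.56, 2.07 and 1.57 against 2.74, 4.16 and 5.96 CPM. The genotypes did not overlap, with Sirt5-/- replicate 1 close to Sirt5+/+ replicate 1, and the difference of 1.04 ± 0.40 missed the threshold (adjusted p = 0.0764).

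Ratios of counts between members of one library do not depend on the scaling between libraries. 6 ratios were taken after the values had been seen, so they describe these libraries, and their p-values carry no weight as tests. Rrm1 over Rrm2 was 1.59, 2.40 and 2.60 in Sirt5+/+ and 17.7, 6.31 and 6.22 in Sirt5-/-. Mcm2 to Mcm7 summed over Mcm10 was 0.243, 0.294 and 0.504 in Sirt5+/+ and 1.49, 3.16 and 7.63 in Sirt5-/-. Mcm10 had more counts than the 6 ring genes together in every Sirt5+/+ library and fewer in every Sirt5-/- library. Pcna over the sum of Rfc1 to Rfc5 was 0.414, 0.439 and 0.676 against 1.00, 0.964 and 1.11, and Pold1 over Pold2 was 0.272, 0.432 and 0.395 against 1.21, 0.918 and 0.880. On the log2 scale the genotypes differed by 2.04, 3.32, 1.04 and 1.47 in these ratios and by 2.45 in Rrm1 over Tk1. These 5 did not overlap, and each gave the smallest p that a two-sided exact permutation test of 3 against 3 allows, 0.1 (0.12 adjusted over 6 ratios). Pola1 over Pola2 overlapped (difference 1.02, exact p = 0.3, and 0.3 adjusted). A change in a ratio shows that its genes changed unequally, not which of them changed. With deposited TPM (a level per transcript length) in place of counts, the 6 differences kept their sign and ran from 0.74 to 3.66.

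**Figure D3:**
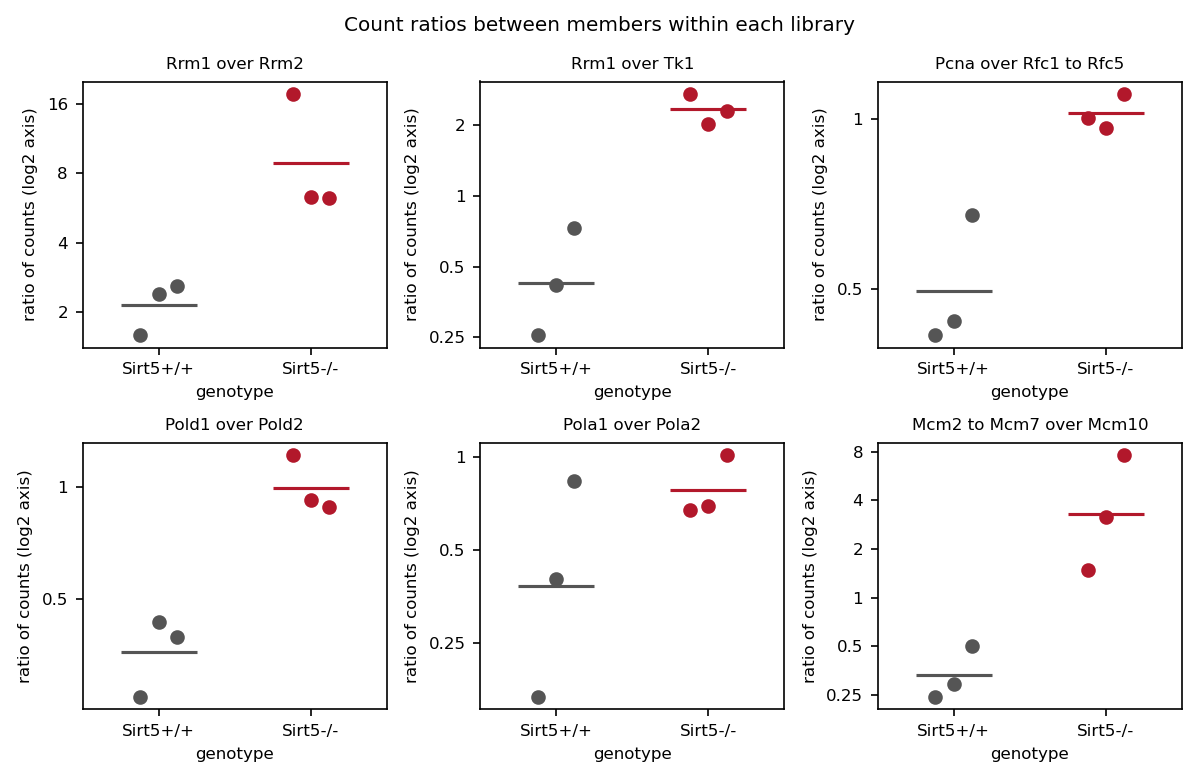
Each panel shows a ratio of counts within a library on a log2 axis, with 1 point per library for 3 Sirt5+/+ (grey) and 3 Sirt5-/- (red) livers and a bar at the mean of the log2 ratios. The points of the genotypes are apart in every panel but Pola1 over Pola2.

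Per length, in mean TPM, Mcm10 ranked 1 of the 40 genes in Sirt5+/+ and 6 in Sirt5-/-, with 109, 106 and 11.9 TPM against 16.5, 19.0 and 11.3. TPM here counts mitochondrial transcripts in its total, and the low Sirt5+/+ value is that of the library richest in them. Their part in that value was not tested. In CPM this library was also the lowest of Sirt5+/+ for Mcm10 (58.4 against 126 and 96.7). Tk1 ranked 2 and then 10. Pcna ranked 3 and then 1 (12.4, 18.3 and 5.01 against 15.1, 36.2 and 52.3 TPM), Mcm3 14 and then 2, and Rrm1 12 and then 3. Orc1 was at 8.23 TPM in Sirt5-/- replicate 2 with 20 counts and at 0.23 TPM in Sirt5-/- replicate 3 with 17, so single TPM values of genes with few reads carry little weight.

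**Figure D4:**
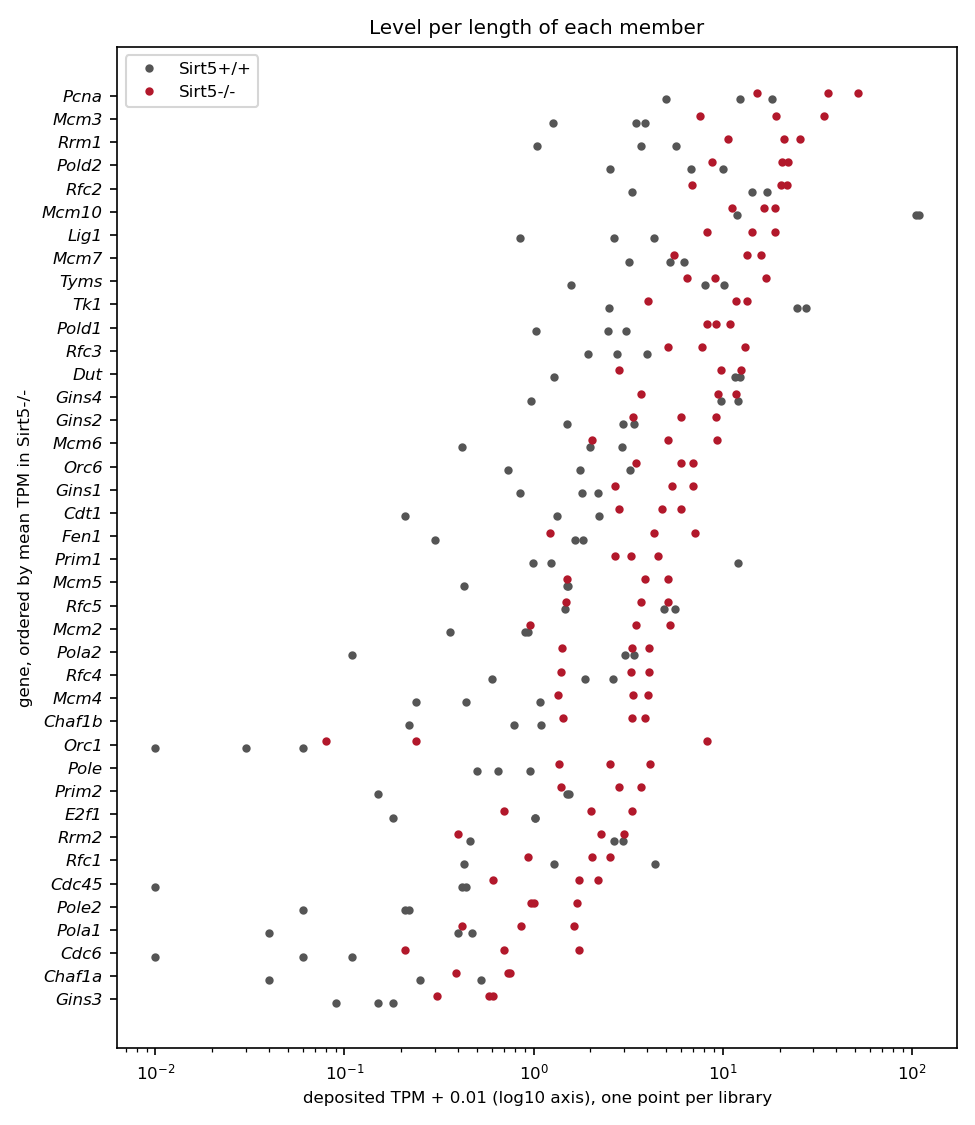
Deposited TPM plus 0.01 of all 40 genes on a log10 axis, 1 point per library, grey for Sirt5+/+ and red for Sirt5-/-, with genes ordered by their mean in Sirt5-/-. Mcm10 and Tk1 have 2 Sirt5+/+ points to the right of all their Sirt5-/- points, and Pcna tops the order.

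Other genes of the same pathways gave a mixed picture. In 12 lists of replication, nucleotide and S-phase regulation genes outside the 40, 125 of 145 genes were tested, 23 rose and 7 fell, with a median log2 fold change of 0.26 against -0.08 for all genes. The share that rose, 18.4%, was near the 17.4% of all genes tested, while the share that fell was 5.6% against 17.1%. The counts of single lists that follow, such as 3 of 18 or 2 of 12, only describe the genes named. Leaving out single libraries moved the counts over all 12 lists between 5 and 47 higher and between 1 and 13 lower. Without Sirt5-/- replicate 3, 4% of the tested list genes were called higher, below the 9.53% of all genes. Without Sirt5-/- replicate 2 these shares were 7.09% and 10.1%, and without Sirt5+/+ replicate 3 they were 35.3% and 25.6%. At the fork 5 of 18 rose, including Top2a, the topoisomerase that untangles new DNA (3.50 ± 1.17 to 17.3 ± 3.09 CPM, SD, n = 3, log2 fold change 2.34, edgeR adjusted p = 0.00198), and Tipin and Timeless of the fork protection complex (1.47 and 1.55). Of 6 firing factors Mtbp and Dbf4, the partner of the kinase CDC7, rose (1.96 and 1.39). None of the 9 other origin and licensing genes tested passed. Those with the smallest p, Orc2, Kat7 and the licensing inhibitor Gmnn, had differences of 0.95, -0.63 and 0.43 (edgeR adjusted p = 0.168, 0.221 and 0.266). Of 9 chromatin genes Asf1b and Uhrf1 rose (2.13 and 2.37), and Rbbp4, the third subunit of CAF-1, fell from 110 ± 16.9 to 56.1 ± 1.89 CPM (log2 fold change -0.97, adjusted p = 0.0159).

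Nucleotide genes outside the 40 also split. Of 12 further deoxynucleotide genes Samhd1, a dNTP hydrolase, and Dck, deoxycytidine kinase, rose by 1.60 and 1.46, while Shmt1, of the folate cycle that feeds thymidylate synthesis, fell by 2.51. Of 18 genes of de novo purine and pyrimidine synthesis Impdh1, Ctps and Uck2 rose (1.78, 1.78 and 0.90) and Gmps, Paics and Prps1 fell by 0.82, 0.89 and 0.86, with a list median of -0.28. Among 18 genes of the E2F, RB and DREAM network Foxm1, Rbl1 and Mybl2 rose (1.73, 1.96 and 2.28), and among 7 S-phase cyclins and kinases Ccna2 rose by 1.87 and Ccne1, cyclin E1, fell by 1.30 (adjusted p = 0.0452). Rad9a of 12 checkpoint genes and Polk and Polq of 8 translesion polymerase genes rose (1.37, 1.52 and 2.54). Polq was at 0.0949, 0.107 and 0.262 CPM in Sirt5+/+, no more than 3 counts a library, so its change rests on few reads. Without Sirt5-/- replicate 3, Asf1b, Uhrf1, Mtbp, Dbf4, Tipin, Timeless, Rbbp4, Uck2, Gmps, Paics, Prps1, Foxm1, Rbl1, Mybl2, Ccna2, Ccne1, Rad9a, Polk and Polq lost their calls (edgeR adjusted p from 0.0507 to 0.126). All of these but Asf1b, Tipin, Foxm1 and Ccna2 also lost them without Sirt5-/- replicate 2 (0.0523 to 0.158). Dbf4, Rbbp4, Gmps, Paics, Prps1, Mybl2, Ccne1, Polk and Polq lost them without Sirt5-/- replicate 1 (0.0570 to 0.131), and Gmps, Prps1, Uck2, Rbl1, Mybl2, Polq and Ccne1 without at least 1 of the Sirt5+/+ libraries (0.0534 to 0.127). With library totals Rbbp4, Gmps, Paics, Prps1, Uck2 and Ccne1 missed the threshold (0.0910 to 0.884).

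Genes of mitosis, the phase after replication, were mostly higher. Of 18 genes 15 rose and none fell, with a median log2 fold change of 2.16, when 17.4% of all genes tested were called higher. With single libraries left out 6 to 16 rose, when 9.53 to 25.6% of all genes were called higher. Ccnb2, cyclin B2, went from 0.777 ± 0.165 to 6.46 ± 2.27 CPM (SD, n = 3, edgeR log2 fold change 3.02, adjusted p = 0.00207), and the kinases Aurkb and Plk1 rose by 2.67 and 2.02. The proliferation marker Mki67 was at 0.996, 3.36 and 4.72 CPM in Sirt5+/+ and 11.96, 19.0 and 22.8 in Sirt5-/-. The difference between the median of this list and that of the 39 replication genes was not tested.

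**Figure D5:**
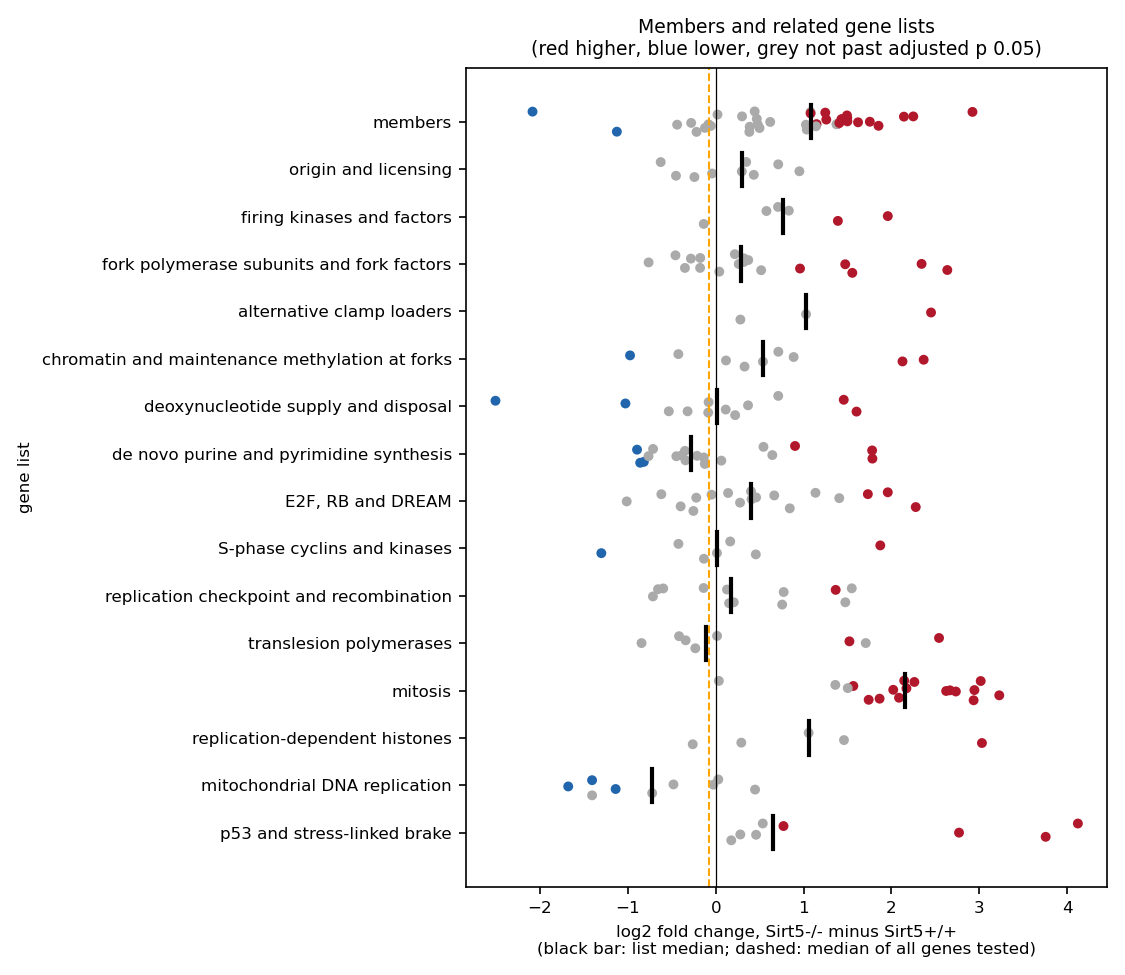
Log2 fold change (Sirt5-/- minus Sirt5+/+, edgeR) of each tested gene in the 40-gene set and in related lists, with the list median as a black bar and the median of all genes as a dashed line; red and blue points passed an adjusted p of 0.05. The mitosis list has the median farthest to the right, 2.16, and the mitochondrial DNA replication list the one farthest to the left, -0.72.

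Markers of liver cell types moved with genotype as well, beside every gene group above. Of 10 hepatocyte markers 8 fell (3 without Sirt5-/- replicate 2 or without replicate 3, and 1 with library totals), with a summed level of 82013 to 104550 CPM in Sirt5+/+ and 19106 to 37955 in Sirt5-/-, and Alb, which encodes albumin, was at 52599 ± 4855 CPM (SD, n = 3) in Sirt5+/+ and 13304 ± 4560.2 in Sirt5-/-, without overlap (log2 difference -1.98, edgeR adjusted p = 0.0607). Cholangiocyte markers summed to 90.5 to 402 and 754 to 833 CPM, with 3 of 8 higher, among them Krt19 and Krt7 (by 2.71 and 3.62). Macrophage and monocyte markers summed to 361 to 447 and 1428 to 2788 CPM, with 7 of 9 higher (Cd14, C1qa and Cd68 by 3.37, 3.10 and 2.57) and Clec4f, a marker of resident Kupffer cells, lower by 3.42. T and NK cell markers summed to 3.86 to 8.91 and 25.9 to 31.8 CPM, with 5 of 7 tested higher, and stellate and fibroblast markers to 353 to 594 and 1799 to 1938 CPM, with 3 of 8 higher and Reln lower. Endothelial markers (3 of 7 lower, 0 with library totals) summed to 88.7 to 145 and 60.9 to 73.7 CPM, and erythroid precursor markers (2 of 3 tested lower, 1 with library totals or without either of Sirt5+/+ replicates 1 and 2 or Sirt5-/- replicates 2 and 3) to 64.4 to 173 and 21.8 to 37.7 CPM. Of 6 B cell markers Cd79a rose, but not without Sirt5+/+ replicate 2 or any Sirt5-/- replicate (edgeR adjusted p from 0.0538 to 0.140) or with library totals (0.1002), with sums of 6.93 to 21.9 and 23.0 to 27.0 CPM, and S100a9, the 1 of 7 neutrophil markers tested, did not pass (sums of 1.88 to 3.32 and 1.78 to 4.05 CPM). No marker was at 0 in all 6 libraries, and the part of these cell types in the replication gene result was not tested.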

How the data were processed

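Values for 6 livers came from a single deposited table. Per the submitters' processing notes, DESeq2 1.24.0, RSEM 1.3.1 and HISAT2 2.1.0 were used. Their options, the use of strand and the genome build are not given in the sources used here. The expected counts were used as deposited by the authors, not scaled between libraries. The deposited TPM values of the authors served for levels between genes. The authors' deposited log2 fold changes and p-values, with adjusted p-values, served only for counts of calls. Identifiers and names of all 55536 genes matched GENCODE M21, which gave the GRCm38 coordinates and overlaps, and 30117 genes had no count.

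Expected counts were rounded, filtered with filterByExpr of edgeR 4.0.16 (minimum count 10, total 15), scaled by TMM (factors 0.396 to 1.68) and tested two-sided with the quasi-likelihood F test in R 4.3.3, genotype as the only term. Benjamini-Hochberg adjustment ran over 14799 genes, with a threshold of 0.05. SE is the log2 fold change over the square root of F. Steps were tested on simulated data. Floors of 3 counts cover counting error only, while SE and SD also hold the spread between libraries.

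The members, lists and alternatives were chosen with earlier results of these data known. All members are named. Of each other list, the rule chose up to 3 tested genes with the smallest p. It added genes past the threshold that moved against most of their list. Not all genes so chosen are named above. Some are only counted, among them Hnf4a, F2 and Cps1 of the hepatocyte list and Pdgfrb and Col1a1 of the stellate and fibroblast list. Afmid, Pcna-ps2, Gm5487, Gm10143, Gse1, Ubxn6, Alb, Mki67, Uck2, Paics and Prps1 were named after their values were seen. Another 2 list genes are counted but not reported here. Chtf8 was left out because 2 entries share its name. Promoter windows are from RefSeq (GRCm38.p6), with 7 members unmatched. Alternatives were the replicate number as a block, other scalings, filters and thresholds, DESeq2 1.42.0, limma-voom (limma 3.58.1), each library left out, the mitochondria-rich libraries or genes left out, and the authors' calls. TPM in place of counts in the ratios was chosen after seeing the data.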

Additional observations from a re-analysis of the deposited data

How the results depend on the processing

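Over 19 alternatives no called member changed sign. All genes called, 5100, became 2763 with library totals and 2596 at an adjusted p of 0.01, and ran from 2531 to 7647 with single libraries left out, lowest without Sirt5-/- replicate 3 and highest without Sirt5+/+ replicate 3. Members called higher were 5 of 39 at an adjusted p of 0.01, when 1415 of all 14799 genes were called higher and 1181 lower. With single libraries left out they were 5 to 24, when 9.53 to 25.6% of all genes were called higher. Members called lower were 0 with library totals, 1 with DESeq2 size factors, upper-quartile factors, the stricter filter, an adjusted p of 0.01 or mitochondrially encoded genes removed, and 1 to 2 with single libraries left out. The members' median became 1.78 with library totals and 1.32 without the mitochondria-rich library of both genotypes. The causes were not tested. With the replicate number as a block 10 members were called higher and 1 lower, of 3643 genes in all. Deviations of same-numbered libraries from their genotype means correlated at -0.19, 0.11 and -0.20. With 3 libraries a genotype these values cannot decide whether equal numbers mark paired samples, and the labels do not say.

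Log2 fold changes near 0 changed sign. With library totals Rfc1 became 0.31, Rfc2 0.58, Pold2 0.49, Gins4 0.44, Rrm2 0.29, Dut 0.32, Atrip 0.041 and Tfrc 0.12. With upper-quartile factors Rfc2 became 0.14, Pold2 0.081 and Gins4 0.12, with the stricter filter Rfc2 0.015, and with the replicate block Gins4 0.016 and S100a9 -0.045. With single libraries left out Rfc1 ran from -0.42 to 0.29, Rfc2 from -0.17 to 0.25, Rfc5 from -0.14 to 0.21, Pold2 from -0.32 to 0.40, Gins4 from -0.34 to 0.15, Dut from -0.50 to 0.069 and S100a9 from -0.53 to 0.41. Genes with few reads, such as Cdc6, Cdc45, Pole2 and Orc1, are limited by depth.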

Other observations

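Of 9 tested genes of mitochondrial DNA replication, 3 fell and 6 did not pass the test, with a median log2 fold change of -0.72: Top1mt, the mitochondrial topoisomerase, from 11.9 ± 2.42 to 3.74 ± 0.523 CPM (SD, n = 3), Twnk, the mitochondrial helicase, from 15.1 ± 2.70 to 5.70 ± 0.746, and Tfam, which packs mitochondrial DNA, from 22.8 ± 1.99 to 10.3 ± 1.98 (edgeR adjusted p = 0.00327, 0.00433 and 0.00752). These 3 kept their calls without any single library and lost them with library totals (log2 fold changes -1.09, -0.78 and -0.45, adjusted p from 0.315 to 0.714). Hepatocyte markers were lower in the same libraries, and their part in this was not tested.

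Inhibitors of the cell cycle were higher in the libraries in which replication genes were higher. Cdkn1a, which encodes the inhibitor p21, was at 8.54, 7.03 and 12.1 CPM in Sirt5+/+ and 58.0, 55.4 and 73.3 in Sirt5-/- (edgeR adjusted p = 0.00148). Cdkn2b rose by 3.75 and Cdkn2a, whose locus encodes p16 and p19ARF, by 4.12 on the log2 scale (adjusted p = 0.00146 and 0.00180). That list, which also holds genes of the p53 pathway, had a median log2 fold change of 0.65. In it 4 of 8 rose and 4 did not pass, when 17.4% of all genes tested were called higher. Of 17 replication-dependent histone genes 5 were tested and Hist1h3b rose, a call lost without Sirt5+/+ replicate 1 or any Sirt5-/- replicate (adjusted p from 0.0906 to 0.128).

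The 5 genes outside the set, of 13204 compared, whose centred log2 CPM over the 6 libraries lay closest to the mean of the 39 tested genes were Coro1c, Sh2b3, Ifnar1, Dnajc8 and Scamp2, with root mean square distances of 0.0514 to 0.0833. Their log2 fold changes were 0.87, 0.82, 0.82, 0.78 and 0.86. The same measure for Mcm10, taken after its values were seen, named Usp2, Adra1b, Lpin1, Susd4 and Sult1c2 (0.123 to 0.193), with log2 fold changes from -2.18 to -2.32. For Tk1 it named Tm2d3, Enpp1, Pycrl, Psmb4 and 9030619P08Rik (0.0401 to 0.0851).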
